A study of Mus musculus with 77 samples.

Results

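A set of 7 genes linked to reactive glia was followed in mouse dorsal root ganglia (DRG): Gfap, Serpina3n, Plin4, Dpep1, Tnc, Slco1c1 and Cldn11. They are 7 of the 18104 genes listed in any of the study's count tables. Of these, 6 were chosen on measured values, as rises or falls in the ribosomes of Dhh-Cre cells 24 h after sciatic nerve injury, and Tnc was added by name. The 24 h values in that pull-down are therefore given as a description, without a test, and so are the other values set against the same naive libraries. The 7 genes carried no numerical threshold, so there is no margin of members just inside or outside it.

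RNA was sequenced from adult male RiboTag mice, whose ribosomal protein Rpl22 gains an HA tag only in cells that express Cre, so that ribosomes of those cells can be captured with an HA antibody together with their RNA (the IP). The injury series used Ribotag(Homo) X Dhh cre(Het) mice for the glial pull-down (Dhh IP) and Ribotag(Homo) X Isl1 cre(Het) mice for the neuronal pull-down (Isl1 IP) and for the lysate before it (Isl1 input), all of strain ICR. Lumbar ganglia were taken from naive mice and 4, 12 and 24 h after the nerve injury, with 3 libraries a group except 2 in the Dhh IP at 24 h and 2 in each injured Isl1 input group. A sham-operated group was not analysed here, and 1 naive group served all times. A second series held naive ganglia of 5 lines, each as IP, input and supernatant (the lysate left after the pull-down): Dhh and Isl1 as above, Runx3 (ICR), and PGK and Adv on C57BL/6, with the tag homozygous in all but Adv. Both the tag and Cre were heterozygous in Adv mice. Line and strain cannot be told apart for PGK and Adv, nor can line and copies of the tag for Adv. PGK-Cre is active in all tissues, Adv-Cre and Isl1-Cre in sensory neurons and Runx3-Cre in proprioceptive neurons. The labels call the injury series of the Dhh line sensory neurons and its naive series glia. Libraries were grouped by line.

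Library totals ran from 29710143 to 54088821 counts. In the Dhh IP of the injury series Dhh itself lay between 405 and 919 CPM (counts scaled to a library total of 1000000) and Isl1 between 2.30 and 7.95, and in the Isl1 IP Dhh lay between 8.13 and 12.8 and Isl1 between 89.8 and 127. Summed over 18 sensory neuron markers, the Dhh IP held 1281 to 1674 CPM and the Isl1 IP 32466 to 36990, so the line, not the cell type label, matched the markers. In the Dhh IP the 12 satellite glia markers summed to 18418 to 24337 CPM in naive and 4 h libraries and to 15678 to 17789 at 12 and 24 h. Of 11 macrophage markers only Cd68 was listed in that table, at 0 to 0.442 CPM in naive and 4 h libraries and 1.23 to 5.03 at 12 and 24 h. The Dhh IP also held 22130 to 31755 CPM of 15 myelinating Schwann cell markers and 878 to 1260 CPM of the 10 listed fibroblast and perineurial markers, with overlapping ranges before and after 12 h. The 3 listed of 10 endothelial markers summed to 34.8 to 49.3 CPM in naive and 4 h libraries and to 20.8 to 33.5 CPM at 12 and 24 h, and at 12 h against 4 h Kdr and Vwf were lower and Pecam1 higher. The part of these shifts in the values below was not tested.

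Satellite glia wrap the cell bodies of sensory neurons in the ganglion, and Schwann cells ensheath their axons. After nerve injury these cells, like astrocytes of the brain and spinal cord, can enter a reactive state, in which the filament protein Gfap and the protease inhibitor Serpina3n are widely used markers. Cytokines that act through the receptor chain gp130 activate the transcription factor STAT3, and glucocorticoid hormones act through their own nuclear receptor. Both routes are known to raise subsets of reactive genes in glia.

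By GENCODE M21 on mm10, Gfap lies at chr11:102887336-102900912 on the minus strand, Serpina3n at chr12:104406729-104414329 on the plus strand and Plin4 at chr17:56100591-56109803 on the minus strand. Dpep1 lies at chr8:123186242-123201812 and Slco1c1 at chr6:141524368-141570177, both on the plus strand. Tnc lies at chr4:63959785-64047015 on the minus strand and Cldn11 at chr3:31149920-31164324 on the plus strand. The sequence just before the RefSeq start site is shown for the 4 genes that were higher at 24 h, which also varied together across libraries. Each run covers 100 bases before the start and 10 after it on GRCm38.p6, 5′ to 3′ on the gene's own strand: Gfap at chr11:102897191-102897300 (minus), Serpina3n at chr12:104406608-104406717 (plus), Plin4 at chr17:56109773-56109882 (minus) and Dpep1 at chr8:123186135-123186244 (plus). Capitals mark a match to a searched motif.
Gfap: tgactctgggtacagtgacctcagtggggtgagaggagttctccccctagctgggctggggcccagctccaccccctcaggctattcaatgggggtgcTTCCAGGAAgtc
Serpina3n: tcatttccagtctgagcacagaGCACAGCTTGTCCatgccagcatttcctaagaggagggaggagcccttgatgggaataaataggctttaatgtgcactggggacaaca
Plin4: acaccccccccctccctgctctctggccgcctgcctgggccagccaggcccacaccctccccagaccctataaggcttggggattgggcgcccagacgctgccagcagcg
Dpep1: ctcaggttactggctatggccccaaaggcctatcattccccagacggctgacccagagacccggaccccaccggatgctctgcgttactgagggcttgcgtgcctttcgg

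Then 3 motifs were searched in windows of 250 bases before to 50 after the start, and each reads the same on both strands. The core recognised by STAT factors, TTCNNNGAA, stood in 8.30% of 32851 promoter windows and, of the 7 genes, in that of Gfap, where it begins 2 bases before the start. The glucocorticoid receptor element GNACANNNTGTNC stood in 0.475% of all windows and, of the 7, in that of Serpina3n, beginning 78 bases before the start. The AP-1 site TGANTCA stood in 7.81% of windows and in none of the 7 genes. In the windows of the 7 genes no motif overlaps another. A match is a description of the letters and not of binding.

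Gfap, the intermediate filament of astrocytes, satellite glia and nonmyelinating Schwann cells, was low in the naive Dhh IP and at 4 h and high at 24 h. It stood at 3.59, 5.18 and 3.00 CPM in the naive libraries, at 2.35, 4.63 and 3.35 CPM at 4 h, at 21.5, 15.8 and 5.39 CPM at 12 h, and at 41.2 and 32.4 CPM at 24 h. All 12 h libraries lay above all naive and 4 h libraries, although the lowest 12 h library (5.39 CPM) cleared the highest naive one (5.18 CPM) by little, and both 24 h libraries lay above all others. The fitted change from naive was -0.16 ± 0.38 at 4 h, 2.01 ± 0.39 at 12 h and 3.21 ± 0.42 at 24 h on the log2 scale (± SE).

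Serpina3n, a secreted serine protease inhibitor of clade A3, was the most abundant of the 7 genes per kilobase and was high at the same times. Its CPM were 321, 288 and 223 in naive libraries, 287, 273 and 247 at 4 h, 1473, 919 and 724 at 12 h, and 3852 and 1375 at 24 h. The naive and 4 h libraries overlapped, and every later library lay above them, but the lower 24 h library (1375 CPM) fell within the 12 h range. The log2 change from naive was -0.01 ± 0.28 at 4 h, 2.07 ± 0.29 at 12 h and 3.21 ± 0.32 at 24 h, and without replicate 1 at 24 h it was 2.28. Serpina3n belongs to a cluster of near-identical genes, so that reads shared with its neighbours make its count uncertain.

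Plin4, a protein that coats lipid droplets, was at low counts in the naive and 4 h libraries and high later. It was at 2.03, 1.34 and 0.306 CPM in naive libraries, 0.512, 0.951 and 0.410 CPM at 4 h, 34.5, 17.6 and 1.54 CPM at 12 h, and 98.0 and 35.9 CPM at 24 h. The 12 h group overlapped the naive group through its library numbered 3, whereas both 24 h libraries lay above all others. The log2 change from naive was -0.92 ± 0.86 at 4 h, 4.03 ± 0.82 at 12 h and 5.78 ± 0.89 at 24 h, where it was 4.87 without replicate 1. Plin4 passed the filter on low values (mean FPKM above 1) only through the groups in which it was high.

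Dpep1, a membrane-bound dipeptidase that cleaves peptides such as leukotriene D4, followed Plin4 closely. Its CPM were 3.82, 2.19 and 0.918 in naive libraries, 1.23, 1.21 and 0.912 at 4 h, 43.0, 17.0 and 4.32 at 12 h, and 115 and 40.1 at 24 h. Every 12 h library lay above every naive library, and the lower 24 h library (40.1 CPM) fell below the highest 12 h library (43.0 CPM). The log2 change from naive was -1.0 ± 0.66 at 4 h, 3.38 ± 0.65 at 12 h and 5.07 ± 0.71 at 24 h, where it was 4.11 without replicate 1. For Gfap, Serpina3n, Plin4 and Dpep1 alike, the library with number 1 was the highest at both 12 and 24 h and the library with number 3 the lowest, and these numbers do not link animals across times.

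Tnc, the extracellular matrix glycoprotein tenascin C, was high at 12 h alone. It was at 8.61, 18.4 and 12.4 CPM in naive libraries, 17.4, 20.6 and 18.1 CPM at 4 h, 67.7, 53.8 and 42.0 CPM at 12 h, and 12.1 and 12.7 CPM at 24 h. All 3 libraries at 12 h lay above all libraries of the other times, and both 24 h libraries lay within the naive range. The log2 change from naive was 0.53 ± 0.24 at 4 h, 2.22 ± 0.24 at 12 h and -0.11 ± 0.26 at 24 h.

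Slco1c1, a transporter that carries thyroxine into cells, and Cldn11, a tight junction protein known from myelin of the central nervous system, were the 2 genes chosen as falls. Slco1c1 was at 5.98, 6.38 and 7.19 CPM in naive libraries, 11.8, 3.36 and 8.90 CPM at 4 h, 0.834, 2.73 and 0.984 CPM at 12 h, and 0.701 and 0.348 CPM at 24 h. All libraries at 12 and 24 h lay below all naive and 4 h libraries. Cldn11 was at 4.47, 1.60 and 1.95 CPM in naive libraries, 1.58, 2.35 and 3.07 CPM at 4 h, 1.56, 2.12 and 1.11 CPM at 12 h, and 0.723 and 0.232 CPM at 24 h, which are 33 and 10 counts. Its 12 h libraries overlapped the naive ones and the 24 h pair lay below all others. At 24 h the log2 change from naive was -3.65 ± 0.64 for Slco1c1 and -2.49 ± 0.61 for Cldn11, and without replicate 1 these were -4.25 and -3.53. In these bulk libraries fewer cells of a type and less RNA per cell cannot be told apart.

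**Figure D1:**
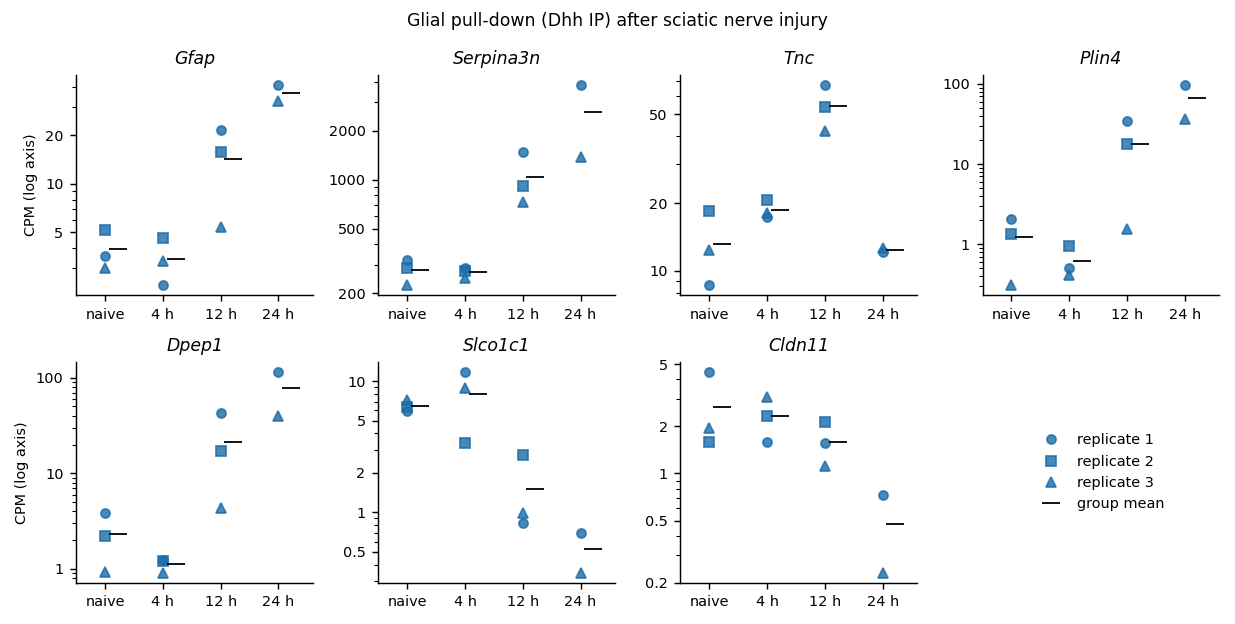
CPM of the 7 genes in each Dhh IP library (points, log axis) by time after injury, with the group mean as a bar. Both 24 h libraries of Gfap and Plin4 lie above all others, Tnc reaches 42.0 to 67.7 CPM at 12 h alone, and Slco1c1 goes from 5.98 to 7.19 CPM in naive libraries to 0.348 to 0.701 CPM at 24 h.

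Per kilobase of transcript (FPKM, group means), the order of the genes changed with time. In the naive Dhh IP, Serpina3n led at 134 FPKM, followed by Slco1c1 (2.05), Tnc (1.85), Gfap (1.48), Cldn11 (1.43), Dpep1 (1.03) and Plin4 (0.213). From Slco1c1 to Dpep1 each gene overlapped its neighbour in this order over the libraries, and Serpina3n and Plin4 stood apart. At 24 h Serpina3n stood at 1266 FPKM, Dpep1 at 34.7, Gfap at 13.9, Plin4 at 11.6, Tnc at 1.75, Cldn11 at 0.255 and Slco1c1 at 0.165, with overlap between Gfap and Plin4 and between Cldn11 and Slco1c1.

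The step from 4 to 12 h compares no library of the 24 h contrast on which 6 of the genes were chosen, and it was tested. The filter, the scaling and the estimate of the spread were still taken over all Dhh IP libraries, the naive and 24 h ones included. All 7 genes were chosen with earlier results of these data known, and Tnc was high at 12 h alone. The choice may thus not be independent of this step. By edgeR's quasi-likelihood test with Benjamini-Hochberg adjustment over 11000 genes, 5 of the 7 were higher at 12 h than at 4 h and 1 was lower at a false discovery rate (FDR) under 0.1. In this contrast 17.7% of all genes tested were called higher and 16.3% lower. The change was 4.95 ± 0.87 log2 units for Plin4 (adjusted p = 0.00071) and 4.38 ± 0.69 for Dpep1 (adjusted p = 0.000324). Gfap rose by 2.17 ± 0.39 (adjusted p = 0.000855), Serpina3n by 2.09 ± 0.29 (adjusted p = 0.000138) and Tnc by 1.69 ± 0.24 (adjusted p = 0.000143). Slco1c1 fell by 2.26 ± 0.50 (adjusted p = 0.00383), and for Cldn11 the change of -0.40 ± 0.48 did not pass (adjusted p = 0.566). Leaving out any 1 library of either group kept these 6 calls, with Plin4 between 4.08 and 5.50 and Dpep1 between 3.41 and 4.87. All 7 passed the filter, but only Gfap, Serpina3n and Tnc had a mean above 1 FPKM in every group. Plin4 and Dpep1 passed through the groups in which they were high, at 0.108 and 0.501 FPKM at 4 h, and Slco1c1 and Cldn11 through the naive and 4 h groups. A gene that passes in this way had to differ, so the count is a description of the list, as are the p-values of Plin4, Dpep1 and Slco1c1. With no filter, over 11284 genes, the adjusted p of these 3 was 0.00072, 0.000329 and 0.00395. The injury series lists only 11285 genes for this pull-down, against 15660 for the naive IPs. A selection on expression may thus remain, and these values are descriptions too.

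Across all genes the Dhh IP differed from naive in 1.15% of genes at 4 h, 32.9% at 12 h and 2.68% at 24 h, where 2 libraries remained. The order of 4 h and 24 h turned with the samples in the fit, since with only the groups compared 4 h gave 558 calls (126 otherwise) and 24 h gave 450 (295 otherwise).

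**Figure D2:**
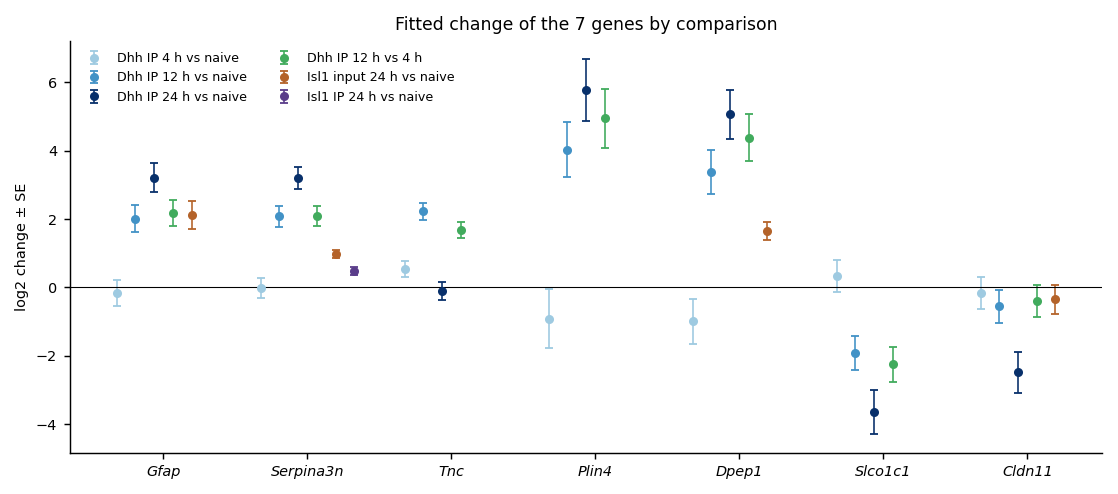
Fitted log2 change (points) with its SE (bars) for each of the 7 genes in 6 comparisons, of which the 3 Dhh IP against naive comparisons are descriptions. At 24 h the change from naive in the Dhh IP and in the Isl1 input was 3.21 and 2.13 for Gfap. It was 3.21 and 0.97 for Serpina3n and 5.07 and 1.64 for Dpep1. These genes were chosen on the Dhh IP change, which favours a larger value there, and the differences were not tested.

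Of the 7 genes, 4 were listed in the Isl1 input, the whole-ganglion lysate of different mice, and Tnc, Plin4 and Slco1c1 were not. Gfap stood at 2.42, 3.15 and 0.696 CPM in naive input, 1.42 and 0.984 CPM at 4 h, 4.18 and 2.94 CPM at 12 h and 7.70 and 10.2 CPM at 24 h. Only the 24 h pair cleared the naive range, and the change of 2.13 ± 0.41 passed (adjusted p = 0.0125). Gfap had a naive mean of 0.789 FPKM and Dpep1 one of 0.996 FPKM, so both passed the filter through their 12 and 24 h libraries. Serpina3n rose from 211, 183 and 201 CPM in naive input to 407 and 348 CPM at 24 h, a change of 0.97 ± 0.11 (adjusted p = 0.000604), with 206 and 181 CPM at 4 h and 264 and 320 CPM at 12 h. Dpep1 went from 2.29, 2.35 and 2.04 CPM to 8.51 and 4.92 CPM, a change of 1.64 ± 0.26 (adjusted p = 0.00482), and at 12 h it stood at 5.07 and 7.86 CPM. Cldn11 overlapped the naive group (6.50, 11.1 and 5.72 CPM) at 24 h, with 3.03 and 8.97 CPM (log2 change -0.35 ± 0.42, adjusted p = 0.688), and without the 24 h library numbered 3 its change was -1.30 (adjusted p = 0.08).

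Of the 4 listed genes 3 were called higher in the Isl1 input at 24 h, where 5.67% of genes tested were, and since Gfap and Dpep1 passed the filter through their high groups this count is a description. With no filter the adjusted p was 0.0126 for Gfap and 0.00484 for Dpep1. These are descriptions too, since the injury series lists only 12515 genes for the input, against 15816 for the naive inputs. At 12 h, 2 of 4 were called (4.48% of all genes): Serpina3n by 0.61 ± 0.11 (adjusted p = 0.0259) and Dpep1 by 1.59 ± 0.26 (adjusted p = 0.0192), while Gfap (0.82 ± 0.42) did not pass (adjusted p = 0.348). Both 12 h calls were lost without the 12 h library numbered 3 (adjusted p = 0.324 and 0.271) and without the naive library numbered 1 (adjusted p = 0.108 for each). At 4 h none of the 4 was called in edgeR, against 1.28% of all genes. The smallest unadjusted p of the 4 was that of Cldn11 (-0.95 ± 0.43), at 0.0501 with the filter and 0.0499 with none. In the lysate the summed satellite glia markers lay between 4723 and 5361 CPM in naive and 4 h libraries and between 4503 and 4870 at 12 and 24 h. The 7 listed macrophage markers lay between 44.7 and 80.9 CPM before and between 48.3 and 80.5 CPM at 12 and 24 h.

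**Figure D3:**
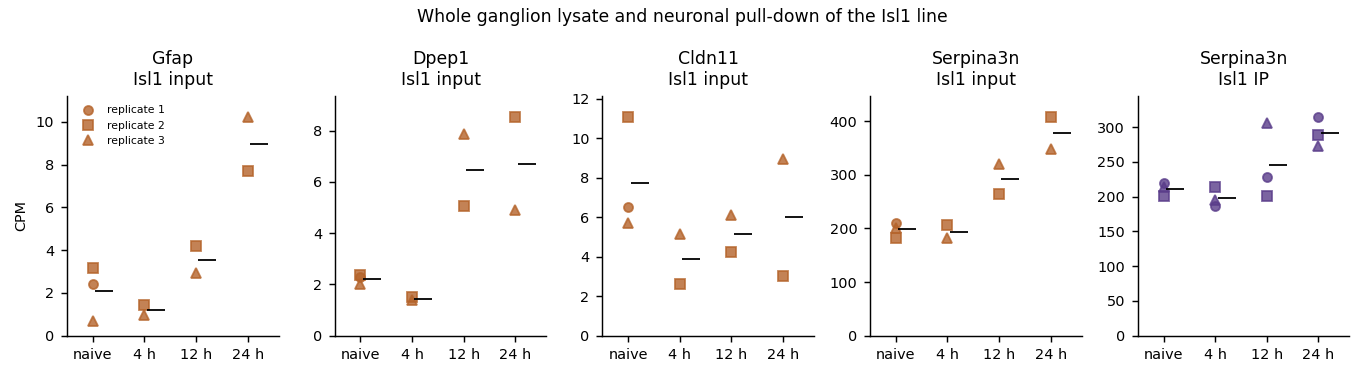
CPM in each library of the Isl1 line (points, linear axis from 0) by time after injury, with the group mean as a bar, for the 4 genes listed in the input and for Serpina3n in the IP. Gfap reaches 7.70 and 10.2 CPM in the input at 24 h, and Serpina3n in the IP lies at 272 to 314 CPM at 24 h.

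Of the 7 genes only Serpina3n was listed in the Isl1 IP of the injury series. Its CPM were 220, 201 and 214 in naive libraries, 187, 213 and 195 at 4 h, 228, 201 and 305 at 12 h and 314, 289 and 272 at 24 h. All 24 h libraries lay above all naive ones, and the highest 12 h library was the one numbered 3, which also held more satellite glia markers (2179 CPM) than any other library of the table. The change was 0.49 ± 0.12 at 24 h (adjusted p = 0.0143), where 11.2% of genes were called higher, and it did not pass at 12 h (0.23 ± 0.12, adjusted p = 0.315, 5.05% of genes called) or at 4 h (-0.08 ± 0.12, adjusted p = 0.878, 3.05% called). The 24 h call held without each library in turn. The response of Serpina3n in the IP minus that in its input at 24 h was -0.47 ± 0.18 log2 units (adjusted p = 0.998, unadjusted p = 0.0158). In this comparison edgeR called 0% of 11312 genes, with 359 genes at an unadjusted p under 0.05, and DESeq2 called 4 genes. IP and input of 1 number were taken to come from 1 lysate, which the labels do not state. With that lysate as a replicate block the difference was -0.51 (adjusted p = 0.0765), with 15 genes (0.133%) called.

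In naive ganglia 6 of the 7 genes had low counts in the Isl1 pull-down, and Serpina3n did not. Because 5 of the 7 fell under the FPKM filter in the naive IP table, the comparisons that follow took no such filter, and all 7 were tested. Gfap stood at 15.6 and 9.39 CPM in the Dhh IP, at 1.84 to 3.59 CPM in the PGK IP and at 0.0976 to 0.426 CPM in the Adv, Isl1 and Runx3 IPs. Slco1c1 stood at 4.90 and 4.33 CPM in the Dhh IP and at 3, 0 and 1 counts in the 3 Isl1 IP libraries. Tnc stood at 5.15 and 7.76 CPM in the Dhh IP and 0.265 to 0.444 CPM in the Isl1 IP, and Plin4 at 3.05 and 10.1 CPM against 0.0945 to 0.220 CPM. None of these 4 genes overlapped between the Dhh IP and the Isl1 IP, where 39.6% of all genes were called higher in the Dhh IP. How many of all genes overlapped was not counted.

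Against the Isl1 IP, 6 of the 7 genes were higher in the naive Dhh IP, where 39.6% of genes were called higher. Gfap was higher by 6.05 ± 0.48 log2 units, Plin4 by 5.50 ± 0.87, Cldn11 by 4.65 ± 0.61, Tnc by 4.24 ± 0.40 and Dpep1 by 3.46 ± 0.70, and Slco1c1 was called as well, on the few counts above, so that its fold is not given. Serpina3n stood at 133 and 395 CPM in the Dhh IP and 85.0, 159 and 141 CPM in the Isl1 IP, and its change of 1.21 ± 0.67 did not pass (adjusted p = 0.116). With the FPKM filter its adjusted p was 0.111 in edgeR, 0.0993 in DESeq2, 0.0645 with only these groups in the fit and 0.0512 without the Dhh library numbered 1. In the injury series Serpina3n was at 201 to 220 CPM in the naive Isl1 IP and at 223 to 321 CPM in the naive Dhh IP. These ranges did not overlap, a separation that was not counted over all genes. The pull-downs of that series were deposited separately and list different genes, so no test was made between them.

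Within the Isl1 line, 6 of the 7 genes were lower in the IP than in its input (20.5% of genes lower). Gfap was at 6.17, 8.26 and 7.79 CPM in the input against 0.0976, 0.166 and 0.340 CPM in the IP, a change of -5.05 ± 0.50, and Dpep1 at 7.45, 6.93 and 6.12 CPM against 0.244, 0.277 and 0.378 CPM, a change of -4.39 ± 0.58. Cldn11 changed by -4.10 ± 0.61, Plin4 by -3.96 ± 0.76 and Tnc by -1.99 ± 0.37, and Slco1c1 was again called on these few counts. Serpina3n was at 159, 139 and 155 CPM in the input and its change of -0.14 ± 0.63 did not pass (adjusted p = 0.902). The groups of Gfap and Dpep1 did not overlap, a separation that was not counted over all genes.

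Within the Dhh line, 5 of the 7 were higher in the IP than in the input (40.2% of genes higher): Tnc by 2.59 ± 0.38, Slco1c1 by 2.13 ± 0.45, Serpina3n by 1.84 ± 0.69, Plin4 by 1.57 ± 0.67 and Gfap by 1.12 ± 0.43. Dpep1 changed by -0.91 ± 0.56 (adjusted p = 0.135) and Cldn11 by -0.70 ± 0.59 (adjusted p = 0.274), so neither was called in either direction, and Cldn11 stood at 19.9 and 14.6 CPM in the IP and 22.6, 42.6 and 29.5 CPM in the input. In the filtered fit the call of Serpina3n was lost without the Dhh IP library numbered 3 (adjusted p = 0.406) and that of Gfap without the one numbered 1 (adjusted p = 0.236), and without library 3 Dpep1 was called lower (-2.49, adjusted p = 0.00391). Dpep1 was also called lower in DESeq2 (adjusted p = 0.0932) and without input library 1 (adjusted p = 0.0535) or 3 (adjusted p = 0.0803). Dpep1 differed between the 2 Dhh IP libraries, at 1.06 and 4.89 CPM. Against the PGK IP, 5 of the 7 were higher in the Dhh IP (37.7% of genes higher), led by Plin4 at 3.46 ± 0.78, Slco1c1 at 2.57 ± 0.49 and Gfap at 2.45 ± 0.40, with Dpep1 at 0.13 ± 0.64 (adjusted p = 0.861) and Cldn11 at 0.89 ± 0.55 (adjusted p = 0.159) not called. The call of Serpina3n against PGK (adjusted p = 0.0591 with the filter) was lost without Dhh IP library 3 (adjusted p = 0.581), PGK IP library 2 (adjusted p = 0.133) or PGK IP library 3 (adjusted p = 0.103), and Cldn11 was called without the last (adjusted p = 0.0948).

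**Figure D4:**
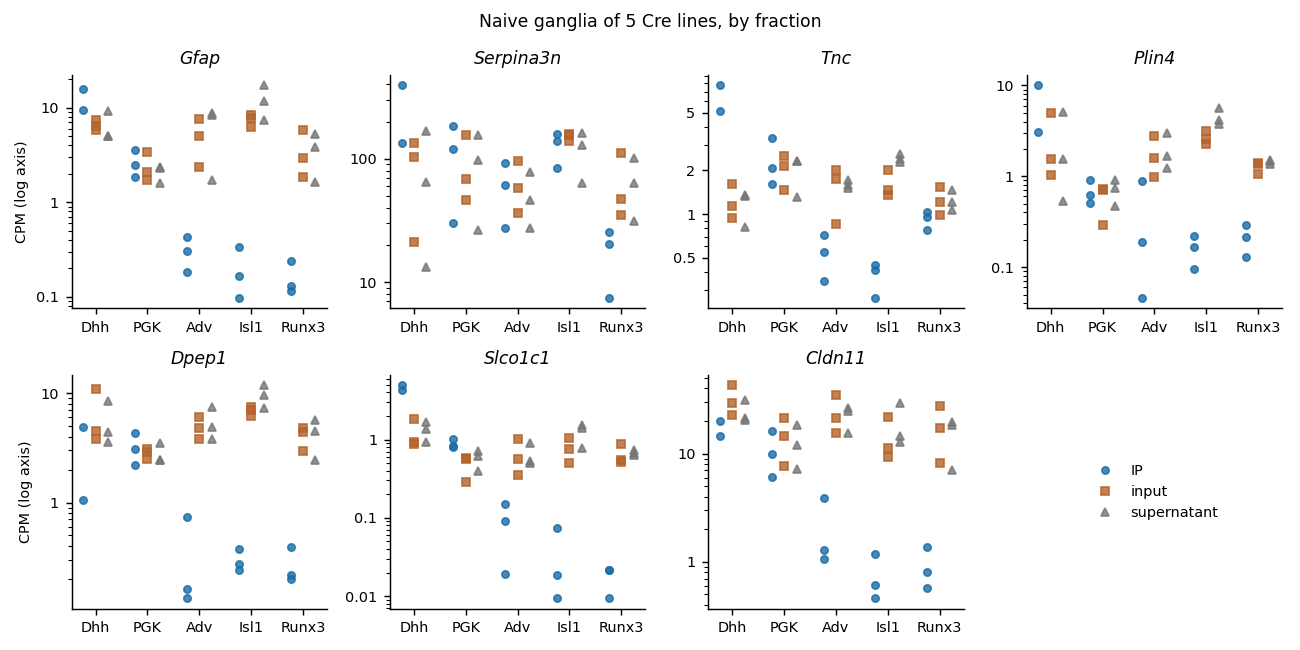
CPM of the 7 genes in each naive library of 5 Cre lines (points, log axis) in the IP, input and supernatant; for Slco1c1, the libraries at 0 counts are drawn at 0.5 times the smallest value above 0. Gfap reaches 9.39 to 15.6 CPM in the Dhh IP and lies under 0.43 CPM in the Adv, Isl1 and Runx3 IPs.

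Supernatants tracked the inputs. Over the 15 naive input and 15 supernatant libraries the median of Gfap was 5.74 and 5.03 CPM, that of Dpep1 4.51 and 4.54 CPM, that of Cldn11 21.3 and 18.4 CPM and that of Serpina3n 96.5 and 64.8 CPM. Serpina3n varied most among libraries of 1 group, as in the Dhh input at 103, 21.1 and 135 CPM.

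Over the 11 Dhh IP libraries of the injury series, the 4 rising genes varied together. Pearson's r of log2 CPM was 0.991 between Plin4 and Dpep1, 0.974 between Gfap and Plin4, 0.969 between Serpina3n and Dpep1 and 0.942 between Gfap and Serpina3n, whereas for Tnc with these 4 it lay between 0.241 and 0.300. The libraries share the times after injury, so these values are a description with no test. Beside the members themselves, the genes most like Gfap were Plin4, Dpep1 and Tmtc1 (0.964), those most like Serpina3n were Tacc1 (0.983), Galnt16 (0.982) and C1qtnf1 (0.971), and those most like Plin4 included Osmr (0.963), a receptor subunit for oncostatin M. Dpep1 was most like Plin4, Serpina3n and Tnfrsf1a (0.966), a receptor for tumour necrosis factor. Tnc was most like Rock2 (0.973), Foxd3 (0.957) and Gorasp2 (0.956), Slco1c1 like Acp1 (0.931), Acsbg1 (0.920) and Pebp1 (0.914), and Cldn11 like Sugct (0.946), Iyd (0.937) and Rheb (0.907).

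Genes of the pathways around the 7 were counted in lists, members left out. The lists were chosen with earlier results of these data known. Their counts, here and in the paragraphs that follow, are thus descriptions, also where the share of all genes stands beside them. In the Dhh IP at 24 h, 5 of the 15 tested genes of gp130 and STAT3 signalling were higher and 0 lower (list median 0.59, all genes -0.00), where 1.23% of all genes were called higher and 1.45% lower. They were Bcl3, an NF-kappaB cofactor (3.28 ± 0.35, adjusted p = 0.000242), the feedback inhibitor Socs3 (2.45 ± 0.29, adjusted p = 0.000655), Stat3 (0.83 ± 0.14, adjusted p = 0.00587), Osmr (1.79 ± 0.31, adjusted p = 0.00799) and Fgl2 (0.85 ± 0.16, adjusted p = 0.0142). Of 8 pan-reactive astrocyte genes 3 were higher (Osmr, the filament gene Vim at 0.56 ± 0.13 and the hyaluronan receptor Cd44 at 0.61 ± 0.17) and 1, the ferroxidase Cp, was lower at -0.62 ± 0.12. Of 11 genes of the A1 set Ggta1 was higher (1.77 ± 0.47), and of 8 of the A2 set Cd14 was (2.50 ± 0.51). None of the 13 repair Schwann cell genes tested was called by edgeR at 24 h (2 had an unadjusted p under 0.05), while at 12 h against 4 h 3 were higher, led by the transcription factor Runx2 (1.19 ± 0.14, adjusted p = 3.63e-05), and 2 were lower.

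Among genes related to the 2 falls, the junction protein Jam2 was lower at 24 h (-1.18 ± 0.16, adjusted p = 0.00164), as was Tspan3 (-0.48 ± 0.12), out of 9 claudin and tight junction genes tested. None of 9 organic anion and thyroid hormone transporters was called in edgeR (2 had an unadjusted p under 0.05). Of 12 satellite glia markers 4 were lower and 0 higher: Ednrb, an endothelin receptor (-1.04 ± 0.18), S100b (-0.66 ± 0.13), Apoe (-0.51 ± 0.12) and Sparcl1 (-0.50 ± 0.13), with a list median of -0.33. Of 15 myelinating Schwann cell markers Pmp2, a lipid carrier of myelin, was lower (-2.32 ± 0.37) and Drp2 higher (0.56 ± 0.14).

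In the 12 h step against 4 h, 11 of 15 glucocorticoid response genes were higher and 0 lower (list median 2.05, all genes -0.03), against 17.7% of all genes higher and 16.3% lower. Zbtb16, a transcriptional repressor, changed by 5.84 ± 0.66 (adjusted p = 2.62e-05), Fkbp5, a co-chaperone of the glucocorticoid receptor, by 4.30 ± 0.59, the metallothionein Mt2 by 3.55 ± 0.37 and the clock gene Per1 by 3.11 ± 0.40. The 4 h values of 3 of these genes lay below naive, though none was called: Zbtb16 by -2.27 ± 0.59, Fkbp5 by -1.95 ± 0.54 and Per1 by -1.30 ± 0.37. Mt2 did not (0.05 ± 0.34). The step from 4 h is thus not the size of a rise above naive. At 24 h against naive 1 of these 15, Mt2, was called (1.71 ± 0.37). In the 12 h step against 4 h, 6 of 15 gp130 and STAT3 genes were higher and 1 lower, with Socs3 at 2.78 ± 0.27 and Il6ra, a receptor for interleukin 6, at 2.40 ± 0.36. Of 8 genes of the A2 set 6 were higher and 1, B3gnt5, was lower (-0.44 ± 0.13), with the steroid sulphate transporter Slc10a6 at 5.94 ± 0.98 and the kinase Sphk1 at 3.01 ± 0.25. At 4 h against naive Slc10a6 stood at -3.53 ± 0.92 and Sphk1 at -0.16 ± 0.23, neither called. Of 12 satellite glia markers 2 were higher, the glutamine synthetase Glul (0.70 ± 0.18) and the cadherin Cdh19 (0.56 ± 0.14), and 4 were lower. Among the 4, the fatty acid carrier Fabp7 was lower by 2.26 ± 0.27 on the log2 scale and Sox10, a transcription factor of peripheral glia, by 0.76 ± 0.24. Sox10 stood at 449, 259 and 157 CPM in the 3 libraries at 12 h against 513 to 553 CPM at 4 h. Its order over the 3 libraries at 12 h was that of Gfap, although Sox10 was lower at 12 h than at 4 h and Gfap higher. Sox10 was chosen after its values were seen, and how many genes share this order was not counted.

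Around Plin4, 3 of 10 lipid droplet genes were higher and 3 lower at 12 h, with the triglyceride lipase Pnpla2 at 1.50 ± 0.21 and Plin3 at -0.84 ± 0.17. Around Tnc, 5 of 13 tenascins and their receptors were higher and 3 lower, with the syndecan Sdc4 at 1.87 ± 0.14 and Tlr4, which tenascin C can activate, at 1.78 ± 0.28. Around Dpep1, 1 of 6 genes of glutathione turnover was higher and 2 lower. The shares of all genes in this step were 17.7% higher and 16.3% lower, and nothing is read from these small counts. Around Serpina3n, 0 of 4 other serpins was called by edgeR at 12 h against 4 h or at 24 h against naive, and at an unadjusted p under 0.05 there were 0 and 1. None of the 4 belongs to clade A3, so its near-identical neighbours were not tested in this pull-down.

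In the Isl1 input at 24 h, 8 of 10 pan-reactive genes were higher and 0 lower (5.67% and 2.75% of all genes), led by the metalloreductase Steap4 (1.49 ± 0.15, adjusted p = 0.000245) and the protease inhibitor Timp1 (3.05 ± 0.40, adjusted p = 0.00138). Of 17 gp130 and STAT3 genes 9 were higher, with the cytokine Il6 at 4.48 ± 0.35 and Socs3 at 3.22 ± 0.30, and of 9 genes of the A2 set 6 were. The clade members Serpina3i (1.16 ± 0.16) and Serpina3c (1.70 ± 0.33) were higher among 8 related inhibitors. Of 15 myelinating Schwann cell markers 5 were lower and 0 higher, among them Mbp (-0.52 ± 0.09), and 2 of 12 satellite glia markers were lower, Ednrb (-0.74 ± 0.10) and Sparcl1 (-0.26 ± 0.07). In the Isl1 IP at 24 h, 7 of 8 pan-reactive genes were higher (11.2% of all genes, list median 0.76, all genes -0.01).

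**Figure D5:**
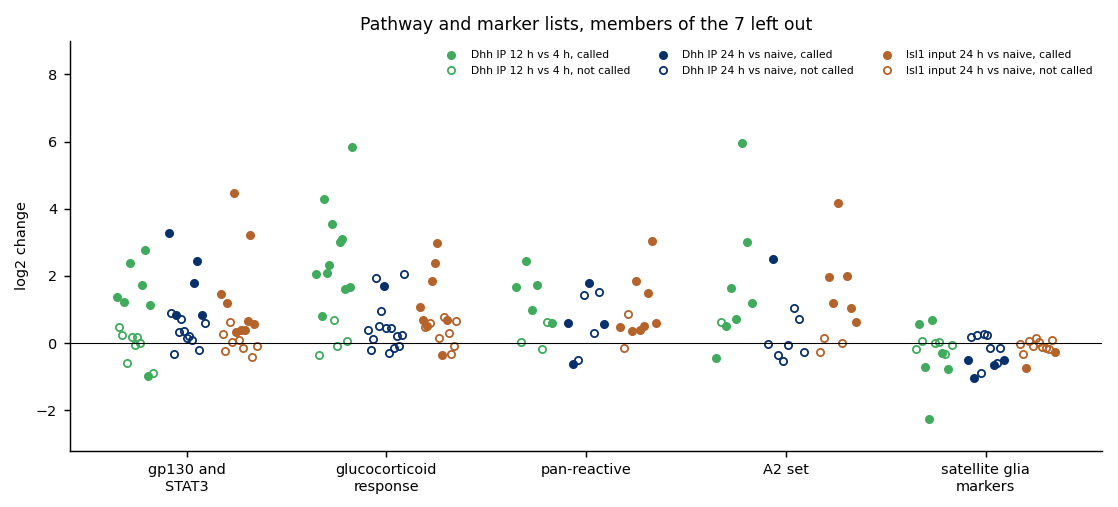
Log2 change of each gene (points) of 5 lists in 3 comparisons, filled where called at an FDR under 0.1 and open where not, with the 7 genes left out. In the 12 h against 4 h step 11 of 15 glucocorticoid response genes are filled and above 0, and at 24 h 5 of 15 gp130 and STAT3 genes are.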

How the data were processed

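The 7 genes and the gene lists were chosen with earlier results of these data known. The authors deposited raw counts per gene in 6 tables, with, beside each count column, a normalized signal (deposited counts rescaled library by library), which was not analysed. Per the study's methods, ribosomal RNA was depleted, cDNA amplified, paired ends sequenced, reads aligned with STAR and counted with HTSeq per RefSeq gene on mm10, uniquely mapped reads only. The submitters' processing notes name CASAVA 1.8.2, edgeR, mm9 and mm10. The strand setting of the counting was not stated, so overlapping and antisense genes are uncertain. Groups came from the labels. Of 77 samples 76 had a count column, 1 naive Dhh IP sample being not analysed here, and 0 columns matched no sample. Up to 23 date-like symbols per table were put back from the RefSeq accession, and 1 was dropped in each injury table.

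Counts were fitted per table in edgeR 4.0.16 (R 4.3.3) with TMM scaling, all groups in 1 model, genes with a mean FPKM above 1, and quasi-likelihood tests called at an FDR under 0.1. SEs were derived as the log2 change over the root of the F statistic. FPKM used transcript lengths of GENCODE M21, and CPM the library total. Naive comparisons are given without the FPKM filter, which the main fit had. Alternatives were DESeq2 1.42.0, its size factors, FPKM filters, only the groups compared, a replicate block and leaving out each library. Per the methods, input was set aside from each lysate before the pull-down. IP and input of 1 number were therefore taken as 1 lysate, though the labels do not state the match. Deviations of such pairs correlated with r of 0.233 to 0.703 in the Isl1 line and -0.102 to 0.836 in naive ganglia. The other numbers link different mice. Nothing in the labels says that replicates are separate animals, and the tests may thus reflect technical spread alone. The scripts were tested on simulated data. Replicates differed beyond counting noise (chi-square per gene 5.50 to 296 over 71 pairs). Named genes were the 7 members, the called list genes with the smallest p (up to 4 a list and comparison), the 3 genes most like each member, and Dhh, Isl1 and Rpl22 as checks. Sox10 lies outside this rule and was chosen after its values were seen. Promoter sequences are RefSeq's (GRCm38.p6), and all 7 genes matched.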

Additional observations from a re-analysis of the deposited data

Results flagged for a closer look

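The response of Serpina3n at 24 h was smaller in the Isl1 IP than in the Isl1 input by 0.51 log2 units (-0.51, adjusted p = 0.0765) when the lysate, taken from equal numbers, was held as a block. It was picked out because the effects of 1 contrast in the 2 fractions differed by a test of the difference itself. Without the block the difference was -0.47 and did not pass (adjusted p = 0.998), and its cause was not tested. Groups of 2 or 3 libraries were too small for the check on single outlying samples.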

How the results depend on the processing

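Counts of called genes moved by more than 1.5 times in these cases, and the cause was not tested. Under DESeq2 the Dhh IP gave 505 calls at 24 h (295) and 359 at 4 h (126), the Isl1 IP 615 at 4 h (345) and 1080 at 12 h (571), the Isl1 input 459 at 4 h (157) and 958 at 12 h (548), and the IP-input difference 4 (0). With only the groups compared, the Dhh IP gave 450 at 24 h and 558 at 4 h, the Isl1 IP 1435, 1861 and 1335 at 4, 12 and 24 h, and the Isl1 input 668 and 1518 at 4 and 12 h. With a mean FPKM above 5, the Isl1 IP gave 216 and 290 and the Isl1 input 56 and 257 at 4 and 12 h, and naive Isl1 IP against input 1733 (3213), which without a filter gave 4967. With a replicate block, the Isl1 input gave 36, 47 and 616 calls at 4, 12 and 24 h (157, 548 and 1030), where Serpina3n and Dpep1 at 12 h had an adjusted p of 0.138 each, and the IP-input difference gave 15. The numbers link different mice there, and same-numbered libraries of the input correlated with r of -0.330 to 0.136. The lysate block changed no other call of a member.

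Leaving out 1 library gave 96 to 228 calls for the Dhh IP at 24 h (96 without its library 1 at 24 h), 33 to 124 at 4 h, 110 to 231, 81 to 373 and 1158 to 2889 for the Isl1 IP at 4, 12 and 24 h, 11 to 77, 29 to 277 and 491 (without naive library 2) to 1943 (without 24 h library 3) for the Isl1 input, and 0 to 5 for the IP-input difference. Of 601 refitted values of the 7 genes, 12 in the tested comparisons lost a call and 12 gained one. The sign changed in 14, from 7 results that were not called and were not called with the other sign, such as Cldn11 in the Isl1 input at 24 h (-0.35, up to 0.22) and Tnc in the Dhh IP at 24 h (-0.11, up to 0.22). Others that changed were Serpina3n against PGK with only the groups compared (adjusted p = 0.139), Cldn11 against PGK with the number as block (0.0989) and Cldn11 in Dhh IP against input (0.0396, only groups compared). Another scaling moved the median of all genes by at most 0.0863 log2 units. Genes at few counts, as Slco1c1 in neurons, are limited by depth.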

Other observations

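The naive Dhh IP was sequenced in both series, and the means of the 7 genes in the 2 sets of libraries differed. Cldn11 was 17.2 CPM in the naive series (2 libraries) and 2.67 CPM in the injury series (3 libraries), a ratio of 6.44. Plin4 was at 6.55 and 1.23 CPM (5.34) and Gfap at 12.5 and 3.92 CPM (3.18). For each of these 3 genes, all higher in the naive series, the libraries of the 2 series did not overlap. Nor did those of Tnc and Slco1c1, which were lower in the naive series, whereas those of Dpep1 and Serpina3n did. How many of all genes separate in this way was not counted, so nothing particular to these genes is read from it. Tnc was at 6.45 and 13.2 CPM (0.490), Slco1c1 at 4.61 and 6.51 CPM (0.708), Dpep1 at 2.97 and 2.31 CPM (1.29) and Serpina3n at 264 and 277 CPM (0.952). The summed satellite glia markers were 54445 to 74187 CPM in the naive series and 18418 to 21330 CPM in the injury series, and Rpl22, the tagged gene, was at 125 to 164 CPM and 24.3 to 31.2 CPM. The tables were deposited separately and list different genes, so no test was made, and what separates the 2 sets was not tested.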
